A study of Mus musculus with 4 samples.

Results

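Glutathione and antioxidant response genes were examined for H3K27ac, an acetyl mark on histone H3 that lies at active promoters and enhancers, in mouse bone marrow cells with the BRD9-NUTM1 fusion and in control marrow cells. The set holds 10 of 21887 protein-coding genes: Nfe2l2, Keap1, Slc7a11, Gclc, Gclm, Gsr, Txnrd1, Gpx1, Gpx4 and Hmox1. They were chosen by hand, with the peak number, length, position and sharing near them already known from these lists, so those values are a description and no test was made on them. For each gene, every peak reaching within 10 kb of either end of its RefSeq span (mm10) was taken, and the acetylated length is the number of bp that peaks cover in that window. The windows held 40 of 19148 peaks of the BN1-labelled list and 42 of 28343 peaks of the control-labelled list.

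The BN1 sample was labelled cKit(+) BRD9-NUTM1, where BRD9-NUTM1 joins a bromodomain protein of chromatin remodelling to the testis protein NUTM1, and the control sample was labelled cKit(+) alone. Both were C57BL/6 bone marrow described as CD45.2-positive, a leukocyte surface marker, and cKit is the stem cell factor receptor of progenitors. Each group had 1 ChIP library and so no replicate error, with the number of animals, their age, any pooling and how the fusion was introduced not given in the sources used here. The input libraries and the MLL-AF9 and MLL-ENL leukaemic cells of the design were not analysed here. Inside the BN1 sample's list the peak names begin with BM and inside the control sample's with BRNU, which reads the other way from the titles, and the extraction text names BN1 cells for every sample. Every direction below therefore holds for the labels of the lists only.

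The BN1-labelled list covered 19.1 Mb and the control-labelled list 31.0 Mb, 1.62 times as much, so lengths are given in bp and, where that matters, per Mb of the list's covered length. Neither list had a peak within 10 kb of Kit, which encodes cKit, and the progenitor gene Cd34 had 0 bp in the BN1-labelled list and 1601 bp in the control-labelled list. The leukocyte gene Ptprc had 2958 bp in the BN1-labelled list and 6634 bp in the control-labelled list. Markers of some mature cells differed between the lists. All of 6 neutrophil markers were longer in the BN1-labelled list, with 34365 bp summed, against 1492 bp in the control-labelled list, where S100a9, Ngp, Ltf and Cxcr2 were at 0. The 4 B cell markers, likewise longer in the BN1-labelled list, summed to 24492 bp there and to 1314 bp in the control-labelled list, where Cd79b, Ebf1 and Pax5 were at 0. The 5 monocyte and macrophage markers, longer in the control-labelled list, summed to 2496 bp in the BN1-labelled list, with Cx3cr1 and Adgre1 at 0, and to 20479 bp in the control-labelled list. Erythroid markers summed to 5469 bp in the BN1-labelled list and 5742 bp in the control-labelled list. T cell markers summed to 3398 bp in the BN1-labelled list and 4929 bp in the control-labelled list. For endothelial and stromal markers the sums were 1514 bp in the BN1-labelled list and 1386 bp in the control-labelled list. Within each of these types single markers went opposite ways. Klf1 had 2920 bp in the BN1-labelled list and 1814 bp in the control-labelled list, and Slc4a1 1740 and 2716 bp. In the same order Cd3g had 3398 and 1693 bp and Cd4 0 and 3236 bp, and Pecam1 had 1087 and 830 bp and Cdh5 0 and 556 bp. The part of these cell types in the results below was not tested, and a bulk list cannot tell a region acetylated in few cells from a weak region in many.

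Glutathione is the main small thiol of the cell: peroxidases oxidise it while they remove peroxides, and a reductase restores it with NADPH. The transcription factor NRF2, encoded by Nfe2l2, is held down by KEAP1 and, when released by oxidants or electrophiles, binds antioxidant response elements at genes of glutathione synthesis, thioredoxin recycling and haem breakdown, where BACH1 competes with it. In blood cells this system guards progenitors against oxidants, sustains neutrophils during their oxidative burst and lets macrophages dispose of haem from engulfed red cells.

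All of the 10 genes had a peak at a start site, and so a region within 10 kb, in both lists. A start-site region here is a peak within 1000 bp of a start, taken from the RefSeq promoter table, or of either gene end for Gsr, Gclc and Hmox1, which that table does not hold. Over all protein-coding genes, 39.3% had such a region in both lists, 54.0% had any region within 10 kb in the BN1-labelled list and 58.4% in the control-labelled list. Gsr, Nfe2l2, Hmox1 and Keap1 differed mostly in peaks away from the start. Start-site peaks themselves also differed. They were longer in the BN1-labelled list at Gsr (3247 bp there, 2053 bp in the control-labelled list), Gpx1 (6127 and 4652 bp) and Gclm (1604 and 793 bp). They were shorter in the BN1-labelled list at Txnrd1 (1662 bp there, 3447 bp in the control-labelled list) and Hmox1 (376 and 885 bp). At the remaining genes they were closer in length. The largest difference was at Gsr, with 16104 bp in the BN1-labelled list and 2053 bp in the control-labelled list. Hmox1 stood at the other end by ratio, with 1852 bp in the BN1-labelled list and 6962 bp in the control-labelled list, and Nfe2l2 by length, with 6708 bp in the BN1-labelled list and 14321 bp in the control-labelled list.

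In bp, Gsr, Gclm and Gclc (3 of 10) had more acetylated length in the BN1-labelled list and the other 7 in the control-labelled list. Of 13606 genes with a peak in either window, 29.3% were longer in the BN1-labelled list and 70.7% in the control-labelled list, so the split of the 10 genes lies near the background. Per Mb of covered length, 6 were longer in the BN1-labelled list and 4 (Nfe2l2, Keap1, Txnrd1 and Hmox1) in the control-labelled list, against 58.2% of the 13606 genes in the BN1-labelled list and 41.8% in the control-labelled list. By at least 2-fold in bp, Gsr alone was longer in the BN1-labelled list (10.5% of genes) and Hmox1, Nfe2l2 and Keap1 in the control-labelled list (33.9%). Per Mb only Gsr (19.0%) and Hmox1 (22.8%) passed that size. The median length was 3319 bp in the BN1-labelled list and 4589 bp in the control-labelled list. Over the 13606 genes it was 1358 bp in the BN1-labelled list and 1925 bp in the control-labelled list. The 10 genes thus had more covered length in both lists, and the differences that follow are not scaled to it. The median of the differences (BN1 minus control) came to -1388 bp, or 49.2 bp per Mb, against -457 bp, or 10.2 bp per Mb, over the 13606 genes.

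**Figure D1:**
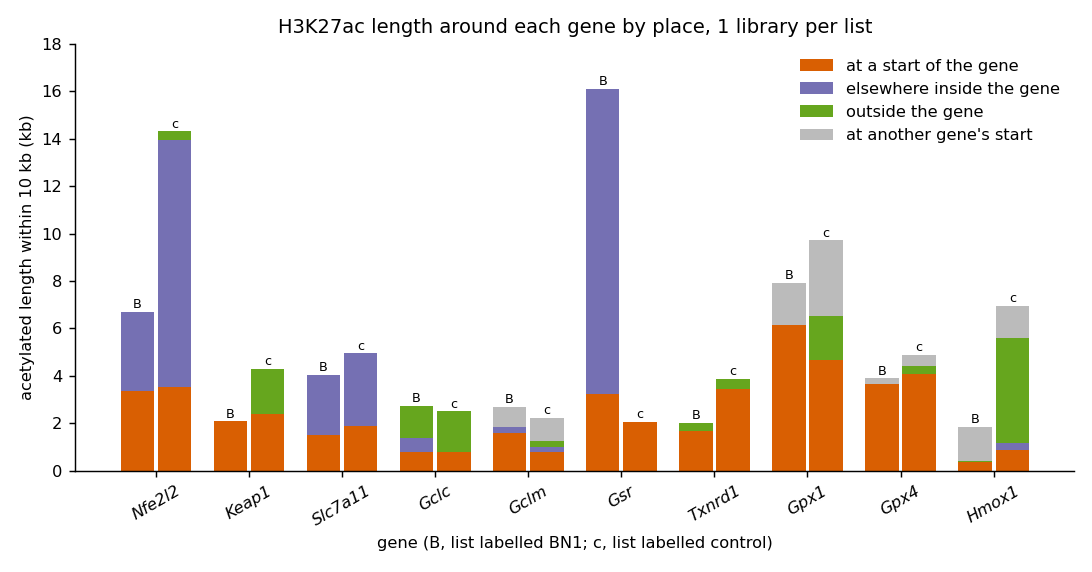
Acetylated length within 10 kb of each of the 10 genes, in kb, with the BN1-labelled list (B) left of the control-labelled list (c) and each bar divided by where its peaks lie. Gsr in the BN1-labelled list and Nfe2l2 in the control-labelled list owe most of their length to peaks inside the gene away from the start, and Hmox1 in the control-labelled list to peaks outside the gene.

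The letters before the starts are shown for the 4 promoters in which a script found a stress-response motif, because these are the stretches that the start-site peaks cover or, at Gclm in the control-labelled list, miss. The RefSeq table (GRCm38.p6, the assembly of mm10) holds 12 starts for 7 of the 10 genes. Each line gives the 250 bases before the start, 5′ to 3′ on the gene's own strand, with capitals marking TGACNNNGC, the core of the antioxidant response element, or at Slc7a11 TGATGCAA, the amino acid response element bound by ATF4. Both strands were searched, and no match overlapped another match or one to TGANTCA (AP-1) or GGGCGG (GC box).
Nfe2l2, chr2:75704664-75704913, minus strand: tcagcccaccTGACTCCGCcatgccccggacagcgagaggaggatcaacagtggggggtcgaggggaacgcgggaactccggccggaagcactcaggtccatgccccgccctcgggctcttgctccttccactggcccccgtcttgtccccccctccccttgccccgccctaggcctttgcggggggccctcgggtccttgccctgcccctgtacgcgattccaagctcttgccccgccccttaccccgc
Gclm, chr3:122245307-122245556, plus strand: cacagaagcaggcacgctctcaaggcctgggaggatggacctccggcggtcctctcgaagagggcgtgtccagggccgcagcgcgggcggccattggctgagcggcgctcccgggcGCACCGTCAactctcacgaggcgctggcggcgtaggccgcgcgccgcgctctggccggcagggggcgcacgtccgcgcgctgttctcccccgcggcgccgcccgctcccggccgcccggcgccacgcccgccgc
Txnrd1 at its second start, chr10:82858956-82859205, plus strand: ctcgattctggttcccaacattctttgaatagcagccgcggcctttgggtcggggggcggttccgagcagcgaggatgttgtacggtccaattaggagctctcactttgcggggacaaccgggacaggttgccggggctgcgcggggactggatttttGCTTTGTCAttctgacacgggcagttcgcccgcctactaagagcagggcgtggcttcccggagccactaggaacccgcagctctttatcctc
Slc7a11, chr3:50443614-50443863, minus strand: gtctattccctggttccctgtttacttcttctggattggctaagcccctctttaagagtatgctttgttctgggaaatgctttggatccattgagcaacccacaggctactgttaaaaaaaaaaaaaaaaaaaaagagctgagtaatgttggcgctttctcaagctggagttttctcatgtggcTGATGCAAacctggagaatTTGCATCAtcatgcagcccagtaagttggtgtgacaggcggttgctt

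The antioxidant core occurred in 3 of the 12 promoters of these genes, and in 10.4% of the 21263 promoters of protein-coding genes in the table. Its first printed base lay 240 bases before the start at Nfe2l2, 134 at Gclm and 92 at the second start of Txnrd1, and at the last 2 genes it read on the opposite strand, as TGACGGTGC and TGACAAAGC. The amino acid motif had 2 matches at Slc7a11, on opposite strands, with first bases 66 and 47 before the start, and occurred in 0.79% of all promoters. That motif was searched after the letters of Slc7a11 had been seen. A GC box was found in 7 of the 12 and in 42.6% of all, and the AP-1 letters in 0 of the 12 and in 6.13% of all. A match describes letters and not a bound site. Of the 12 promoters, 9 were covered over their whole 250 bases in the BN1-labelled list and 9 in the control-labelled list. The antioxidant core of Gclm lay inside a peak in the BN1-labelled list and outside any peak in the control-labelled list, whereas the matches at the other 3 genes lay inside a peak in both.

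Nfe2l2 (chromosome 2, 75675513 to 75704663, minus strand), the gene of NRF2, was acetylated at its start and deep inside the gene in both lists. Its start-site peak was 3363 bp wide in the BN1-labelled list, with a fold enrichment of 37.8, above that of 96.0% of the peaks of that list, and 3535 bp wide in the control-labelled list, with a fold enrichment of 38.2, above 99.2% of its list. The fold enrichment is the authors' value at the peak summit and serves here only to place a peak within its own list. A further strong peak lay inside the gene, 2499 bp wide with a fold enrichment of 40.3 and a summit 21364 bp after the start in the BN1-labelled list, and 3783 bp wide with 29.8 and a summit at 21323 bp in the control-labelled list. Both anchors were thus present in both lists, and most of the difference lay between them. The BN1-labelled list had 3 peaks in the window, all shared, where shared means overlapping a peak of the other list by at least 1 bp. The control-labelled list had 10 peaks, of which 4 were shared. The other 6, between 358 and 1748 bp wide and with fold enrichments of 4.34 to 9.44, added 5970 bp inside the gene. Of all peaks, 62.6% of the BN1-labelled list and 41.2% of the control-labelled list were shared. The 4 of 10 at Nfe2l2 thus lie near the share of the whole control-labelled list. The difference of -7613 bp (BN1 minus control) ranked 368 in bp and 1013 per Mb among 21887 genes, counted from the largest control excess.

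Keap1 (chromosome 9, 21229730 to 21239332, minus strand), the adaptor through which a cullin ligase degrades NRF2, had 1 peak in the BN1-labelled list and 3 in the control-labelled list. The start-site peaks nearly coincided. They were 2079 bp wide in the BN1-labelled list and 2404 bp in the control-labelled list, with 2007 bp in common. In total Keap1 had 2079 bp in the BN1-labelled list and 4292 bp in the control-labelled list, and most of the difference lay in 2 unshared peaks of 1355 and 533 bp beyond the 3' end of the gene, 4.57 and 8.56 kb from it at their summits. A window does not assign a peak to a gene.

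**Figure D2:**
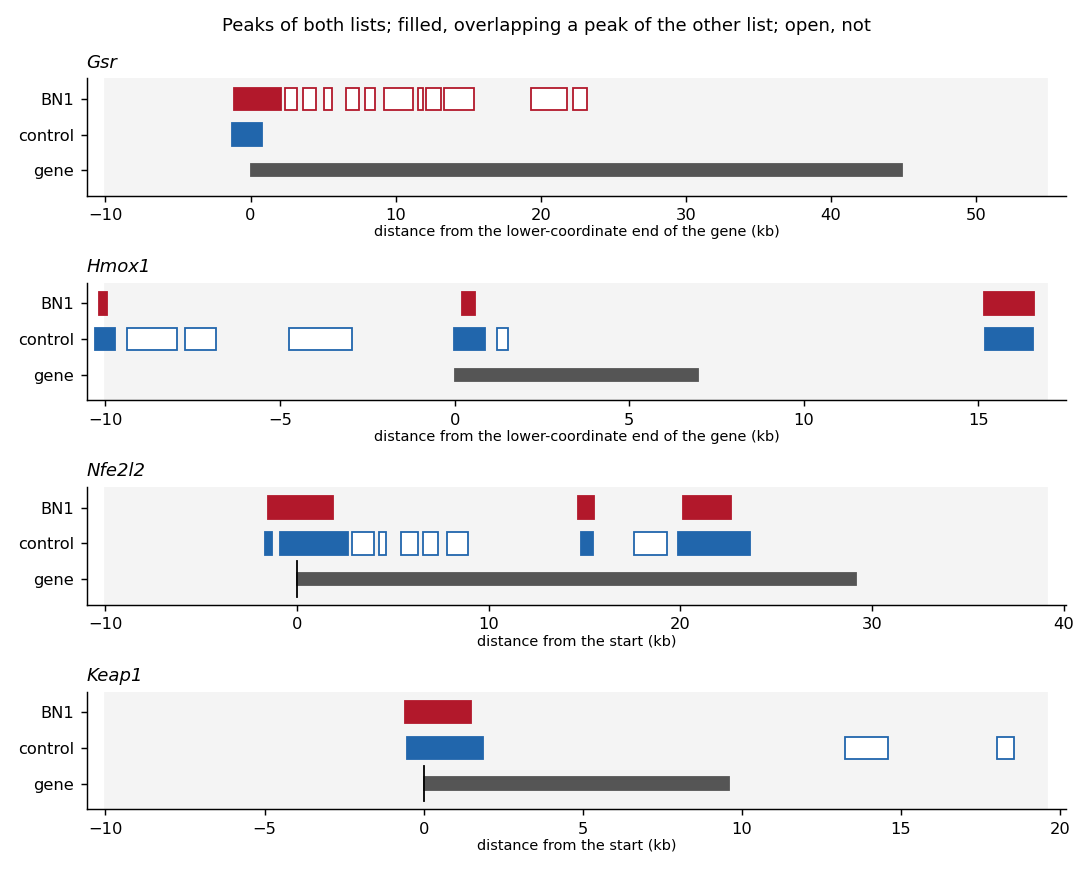
Peaks around Gsr, Hmox1, Nfe2l2 and Keap1, with the BN1-labelled list above the control-labelled list and the gene below (vertical ticks, starts in the promoter table). The x axis is the distance in kb from the start, or from the lower-coordinate end where the table gives no start, and the grey band is the gene with 10 kb each side. The unshared (open) peaks run along Gsr in the BN1-labelled list, and along Nfe2l2 and outside Hmox1 and Keap1 in the control-labelled list.

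Slc7a11 (chromosome 3, 50364936 to 50499087) encodes xCT, the transporter that brings in cystine for glutathione synthesis. The only start in the promoter table lies inside this span, on the minus strand. Its pattern was similar in both lists. It had 6 peaks and 4041 bp in the BN1-labelled list and 7 peaks and 4946 bp in the control-labelled list, and 5 peaks of each list were shared. The start-site peak, over the promoter printed above, was 1511 bp wide with a fold enrichment of 8.20 in the BN1-labelled list and 1883 bp wide with 13.1 in the control-labelled list. The remaining peaks lay inside the gene in 2 groups, with summits 4388 to 7376 bp and 36805 to 40639 bp after the start over both lists, and no other protein-coding gene lay in the window. The difference was -905 bp but 51.9 bp per Mb, so its direction depends on the scale.

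Gclc and Gclm encode the catalytic and the modifier subunit of glutamate-cysteine ligase, which catalyses the rate-limiting step of glutathione synthesis. Gclc (chromosome 9, 77754535 to 77794489) had 2739 bp in the BN1-labelled list and 2495 bp in the control-labelled list. Its end peak was 799 bp wide in the BN1-labelled list and contained the lower-coordinate end of the gene, and it was 776 bp wide in the control-labelled list and began 50 bp inside. Its longest peak lay outside the gene, with a summit 3.82 kb below that end in the BN1-labelled list (1364 bp, fold enrichment 15.7) and 4.04 kb below it in the control-labelled list (1719 bp, 13.0), and the whole BN1 peak was contained in the control one. Gclc thus showed the same paired layout of positions in both lists, apart from 2 weak BN1 peaks of 303 and 273 bp inside the gene. The end peak differed in strength. It had a fold enrichment of 15.3 (above 80.2% of that list) in the BN1-labelled list and of 5.82 (above 43.5%) in the control-labelled list.

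Gclm (chromosome 3, 122245487 to 122267215, plus strand) had a start-site peak of 1604 bp in the BN1-labelled list (fold enrichment 18.6, above 84.8% of that list) and of 793 bp in the control-labelled list (7.08, above 54.4%). The narrower peak lay wholly inside the wider one but began 27 bp after the start, so that none of the 250 bases printed above was covered in the control-labelled list and all of them were in the BN1-labelled list. The window totals, 2684 bp in the BN1-labelled list and 2241 bp in the control-labelled list, included a shared peak at the start of the neighbour Dnttip2, of 860 bp in the BN1-labelled list and 990 bp in the control-labelled list. Without it Gclm had 1824 bp in the BN1-labelled list and 1251 bp in the control-labelled list.

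Gsr (chromosome 8, 33653238 to 33698162) encodes glutathione reductase, which regenerates glutathione from its oxidised form. It showed the largest difference of the 10 genes. At the lower-coordinate end both lists had a peak, 3247 bp wide with a fold enrichment of 13.6 in the BN1-labelled list and 2053 bp wide with 6.33 in the control-labelled list, and 1934 bp were common to both. That was the only peak in the window in the control-labelled list. In the BN1-labelled list a further 11 peaks, none shared, followed it along the gene and covered 12857 bp. Successive peaks were separated by gaps of 231 to 3877 bp (median 404 bp), and the run ended 23.2 kb into a gene of 44.9 kb, with no peak in either list over the remaining 21.7 kb.

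The 11 unshared Gsr peaks were 338 to 2513 bp wide, with a median fold enrichment of 6.79, and unshared peaks of the whole BN1-labelled list had a median of 4.81. The strongest, at the far end of the run (chr8:33675461-33676426), reached 12.9, and peaks of 2015 and 2066 bp in the middle reached 12.4 and 11.6. The excess of Gsr in the BN1-labelled list, 14051 bp or 7.84-fold, ranked 6 among 21887 genes in bp and 5 per Mb. Exons and introns could not be told apart with the annotation used here. The neutrophil markers, at 34365 bp in the BN1-labelled list and 1492 bp in the control-labelled list, and the B cell markers, at 24492 bp in the BN1-labelled list and 1314 bp in the control-labelled list, were longer in the same list as Gsr, and their part in the run over Gsr was not tested.

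Txnrd1 (chromosome 10, 82833951 to 82897724, plus strand) encodes cytosolic thioredoxin reductase, the counterpart of Gsr in the thioredoxin system. It went the other way in bp. The table gives it 3 starts. The first lay far from any peak (24896 bp in the BN1-labelled list and 24196 bp in the control-labelled list), while the second and the third were acetylated in both. In the BN1-labelled list they lay under separate peaks of 1058 and 604 bp, and in the control-labelled list under 1 peak of 3447 bp that contained both. In total Txnrd1 had 2013 bp in the BN1-labelled list and 3864 bp in the control-labelled list, a difference that kept its direction per Mb (-19.3).

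Gpx1 and Gpx4 encode selenium-dependent peroxidases that use glutathione, GPX1 acting on hydrogen peroxide and GPX4 on lipid peroxides, which holds off ferroptosis. Gpx1 (chromosome 9, 108339080 to 108340342) is the shortest of the 10 genes, and its whole span was acetylated in both lists. A peak of 6127 bp covered it in the BN1-labelled list, and a peak of 4652 bp, followed by another of 1892 bp, in the control-labelled list. Of its 7921 bp in the BN1-labelled list and 9710 bp in the control-labelled list, 1794 bp in the BN1-labelled list and 3166 bp in the control-labelled list lay in peaks at the start of Usp4, and without these the values were 6127 bp in the BN1-labelled list and 6544 bp in the control-labelled list. Gpx4 (chromosome 10, 80047166 to 80056439) had a main peak of 3668 bp in the BN1-labelled list (fold enrichment 26.4) and of 4077 bp in the control-labelled list (11.4), with 3653 bp in common. That peak spanned the later 3 of its 4 listed starts, and the first, 3749 bp from the nearest peak in the BN1-labelled list and 3764 bp in the control-labelled list, lay in no peak of either list. In total Gpx4 had 3899 bp in the BN1-labelled list and 4886 bp in the control-labelled list. Of these, 231 bp in the BN1-labelled list and 480 bp in the control-labelled list lay at the start of Polr2e. The differences (BN1 minus control) of Gpx1, -1789 bp, and Gpx4, -987 bp, both changed sign per Mb, to 101 and 46.4 bp per Mb. In covered length both peroxidase genes were therefore much alike in the 2 lists, with 75.7% (Gpx1) and 71.2% (Gpx4) of the length covered by either list covered by both. In fold enrichment the main Gpx4 peak stood above 91.5% of the BN1-labelled list and above 75.1% of the control-labelled list.

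**Figure D3:**
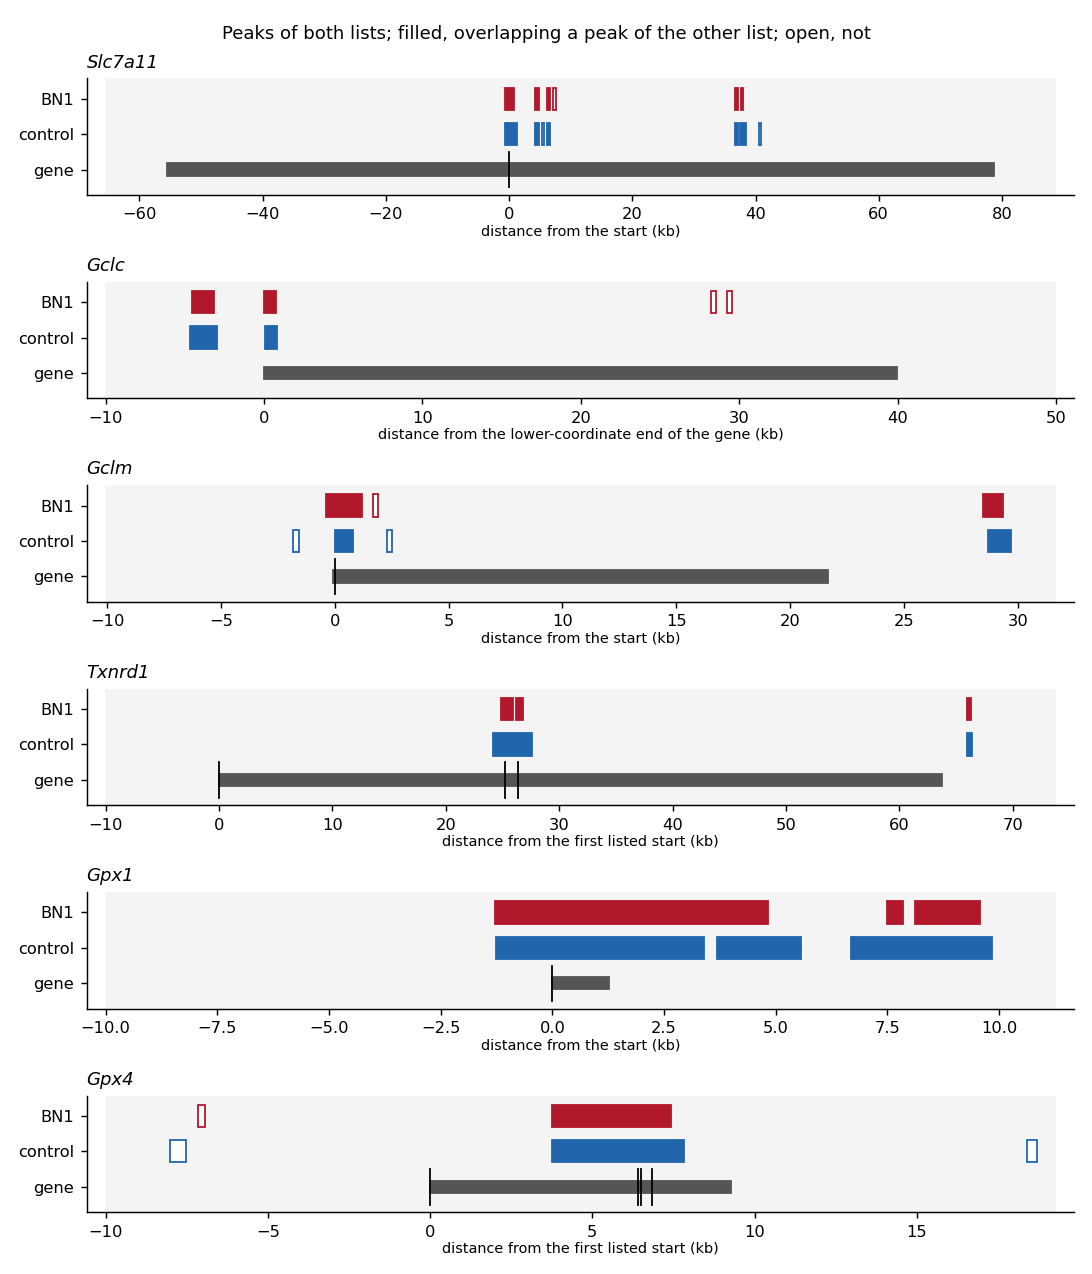
Peaks around Slc7a11, Gclc, Gclm, Txnrd1, Gpx1 and Gpx4, drawn as for Gsr, with the BN1-labelled list above the control-labelled list. Filled peaks, which overlap a peak of the other list, make up most of each track, and the start of each gene, or for Txnrd1 and Gpx4 a later start, lies under or next to a filled peak in both lists.

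Hmox1 (chromosome 8, 75093618 to 75100593) encodes haem oxygenase 1, which opens the haem ring and is among the genes most responsive to NRF2 and to loss of BACH1. It had the largest ratio in favour of the control-labelled list, 3.76 in bp and 2.32 per Mb. The peak at its lower-coordinate end was 376 bp wide in the BN1-labelled list, with a fold enrichment of 4.04, above that of 16.7% of the list, and 885 bp wide in the control-labelled list, with 14.7, above 83.7% of the list. In the BN1-labelled list this peak began 205 bp inside the gene, and in the control-labelled list it included the gene end. Outside that end the control-labelled list had peaks of 1822, 883, 1429 and 559 bp, with summits 3697, 7246, 8569 and 9852 bp away, and the first 3 were unshared. The BN1-labelled list had in that stretch a single peak of 220 bp, 10016 bp away and inside the most distant control peak.

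Most of the length in the Hmox1 window in the BN1-labelled list lay at another gene. A peak at the start of Mcm5 beyond the upper end gave 1433 of its 1852 bp, and 1372 of the 6962 bp in the control-labelled list. Without that peak Hmox1 had 419 bp in the BN1-labelled list and 5590 bp in the control-labelled list. The monocyte and macrophage markers, at 2496 bp in the BN1-labelled list and 20479 bp in the control-labelled list, differed in the same direction, and their part was not tested. The difference of -5110 bp (BN1 minus control) ranked 766 among 21887 genes in bp and 810 per Mb, counted in the same way.

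Over the 10 windows together, start-site peaks carried 24436 bp in the BN1-labelled list and 24505 bp in the control-labelled list. These near-equal sums join opposite differences. Gpx1 had 6127 bp at its start in the BN1-labelled list and 4652 bp in the control-labelled list, and Txnrd1 1662 and 3447 bp. The same sum over all genes was not computed. All 11 start-site peaks in the BN1-labelled list and all 10 in the control-labelled list were shared. Counted by gene and not by peak, all of the 10 genes had a start-site region in both lists. Over all genes, 92.7% of those with a start-site region in the BN1-labelled list had one in the other list too. For those with one in the control-labelled list the share was 86.1%. The share of start-site peaks over all genes was not computed. Peaks elsewhere inside the genes covered 19528 bp in the BN1-labelled list, of which Gsr held 12857 bp, and 14002 bp in the control-labelled list, of which Nfe2l2 held 10418 bp. Outside the genes and away from other starts there were 3 peaks with 1758 bp in the BN1-labelled list and 12 peaks with 11255 bp in the control-labelled list. All of those 3 and 5 of those 12 were shared, beside 62.6% of all peaks of the BN1-labelled list and 41.2% of the control-labelled list. The 5 of 12 thus lie near the share of the whole control-labelled list. Summed over all windows the lengths were 50040 bp in the BN1-labelled list and 55770 bp in the control-labelled list, a ratio of 0.897 (BN1 over control). It was 0.632 without Gsr. With Gsr included, it turned to 1.46 per Mb and 1.10 without flanks. It was 1.02 with lists cut to equal length and 1.11 with the top 10000 peaks of each, again with Gsr. These last values were not computed without Gsr, whose excess in the BN1-labelled list was 14051 bp.

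Of the peaks in these windows, 24 of 40 in the BN1-labelled list (60.0%) and 24 of 42 in the control-labelled list (57.1%) overlapped a peak of the other list. Peaks of 1 gene are not independent, and 11 of the 16 unshared peaks of the BN1-labelled list lay in Gsr. The shares of all peaks were 62.6% in the BN1-labelled list and 41.2% in the control-labelled list. By length, 64.0% of what the BN1-labelled list covered in the windows and 57.5% of what the control-labelled list covered was common to both, against 64.2% of the whole BN1-labelled list and 39.6% of the whole control-labelled list. Gsr was at the low end of this measure, with 11.9% of the length covered by either list covered by both, and Gpx1 at the high end with 75.7%.

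Peaks near the edge of the 10 kb window were at Hmox1, Gsr and Gpx4. An unshared control peak of 329 bp at Gpx4 lay just inside the edge, with its summit 9194 bp beyond the upper end of the gene. The distant Hmox1 peaks crossed the edge, with 43 of 220 bp inside in the BN1-labelled list and 270 of 559 bp in the control-labelled list. Next to Gsr a shared peak, 1186 bp wide in the BN1-labelled list and 896 bp in the control-labelled list, lay outside the window, by 674 bp in the BN1-labelled list and by 797 bp in the control-labelled list. Around Slc7a11 the nearest peak outside the window was 699859 bp away in the BN1-labelled list and 97023 bp away in the control-labelled list.

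Beyond the 10 genes, 76 further genes of glutathione, thioredoxin, NADPH, iron and NRF2 biology were listed. Of these, 63 had a region in the BN1-labelled list (54.0% of all genes did) and 66 in the control-labelled list (58.4%). A start-site region in both lists was found for 53 (39.3% of all genes) and in neither for 14 (51.2% of all genes). In bp, 20 were longer in the BN1-labelled list, 47 in the control-labelled list and 9 had no region, whereas per Mb 36 were longer in the BN1-labelled list and 31 in the control-labelled list. Both splits lie near those of the 13606 genes, of which 29.3% in bp and 58.2% per Mb were longer in the BN1-labelled list. Their median difference came to -347 bp (0 bp per Mb). Of the 67 with a region, 8 were at least 2-fold longer in the BN1-labelled list and 23 in the control-labelled list, beside 10.5% of the 13606 genes for the BN1-labelled list and 33.9% for the control-labelled list. Per Mb the same size was reached by 12 in the BN1-labelled list, beside 19.0% of the 13606 genes, and by 11 in the control-labelled list, beside 22.8%.

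Among the partners and regulators of NRF2, 4 of 13 were longer in the BN1-labelled list and 9 in the control-labelled list in bp. Per Mb these numbers were 7 and 6. Both splits lie near those of the 13606 genes, of which 29.3% in bp and 58.2% per Mb were longer in the BN1-labelled list. The same shares are the background for each group below, and no group was tested against them. Nfe2, a factor of the same family in erythroid cells and megakaryocytes, had 7832 bp in the BN1-labelled list and 2188 bp in the control-labelled list, with a start-site region in the BN1-labelled list only. Btrc, a ubiquitin ligase subunit that can also target NRF2, had 4261 bp in the BN1-labelled list and 938 bp in the control-labelled list, and the small MAF partner Mafk 3727 bp in the BN1-labelled list and 1931 bp in the control-labelled list. Another small MAF gene, Maff, had no region in the BN1-labelled list and 2193 bp in the control-labelled list, with a start-site region. Nfe2l1, the gene of NRF1, had 1723 bp in the BN1-labelled list and 7988 bp in the control-labelled list.

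Of the 10 genes of glutathione synthesis and turnover, 5 were longer in the BN1-labelled list and 3 in the control-labelled list, in bp and per Mb alike, and 2 had no region. Ggt1, a gamma-glutamyl transferase that breaks down extracellular glutathione, had 4921 bp in the BN1-labelled list and 1131 bp in the control-labelled list. Its relative Ggt5 had 3396 bp in the BN1-labelled list and the same 1131 bp in the control-labelled list, where the neighbours' windows share a peak, and both had a start-site region in the BN1-labelled list only. Gss, glutathione synthetase, had no region in the BN1-labelled list and 1280 bp in the control-labelled list. Chac1, which degrades glutathione inside the cell, had 715 bp in the BN1-labelled list and 1871 bp, with a start-site region, in the control-labelled list. Regions longer in either list thus occurred side by side in this group.

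Glutathione-using enzymes, with 22 genes, were longer in the BN1-labelled list at 4 and in the control-labelled list at 11 in bp, but at 9 in the BN1-labelled list and 6 in the control-labelled list per Mb, with no region at 7. Abcc1, a pump for glutathione conjugates, had 629 bp in the BN1-labelled list and 12165 bp in the control-labelled list, the largest control excess of the 76 genes. The membrane-bound transferase gene Mgst2 had 4140 bp in the BN1-labelled list and 2773 bp in the control-labelled list, with a start-site region in the BN1-labelled list only. Mgst3, its relative, had no region in the BN1-labelled list and 1345 bp in the control-labelled list. Among 12 thioredoxin and peroxiredoxin genes, 2 were longer in the BN1-labelled list and 10 in the control-labelled list, but 6 in each per Mb, and all had a start-site region in both lists. Prdx1, a peroxide-removing enzyme, led with 530 bp in the BN1-labelled list and 8428 bp in the control-labelled list.

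Of the 7 genes that supply NADPH, 2 were longer in the BN1-labelled list and 5 in the control-labelled list, in bp and per Mb alike. In bp that split lies near the 70.7% of the 13606 genes that were longer in the control-labelled list. Per Mb the share of those genes was 41.8%. G6pdx, which begins the pentose phosphate pathway, had 1114 bp in the BN1-labelled list and 5902 bp in the control-labelled list, and Me1, malic enzyme, had no region in the BN1-labelled list and 4186 bp, with a start-site region, in the control-labelled list. Of 8 genes of quinone, haem and iron handling, 2 were longer in the BN1-labelled list and 6 in the control-labelled list in bp, and 3 in the BN1-labelled list and 5 in the control-labelled list per Mb. Osgin1, an NRF2-responsive gene, had 4527 bp in the BN1-labelled list and 11407 bp in the control-labelled list, and Blvra, the biliverdin reductase that acts after haem oxygenase, had 532 bp in the BN1-labelled list and 6705 bp in the control-labelled list. All of the 3 genes that remove superoxide and peroxide directly were longer in the control-labelled list in bp and in the BN1-labelled list per Mb, and Slc3a2, the partner chain of xCT, had 3732 bp in the BN1-labelled list and 3652 bp in the control-labelled list.

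**Figure D4:**
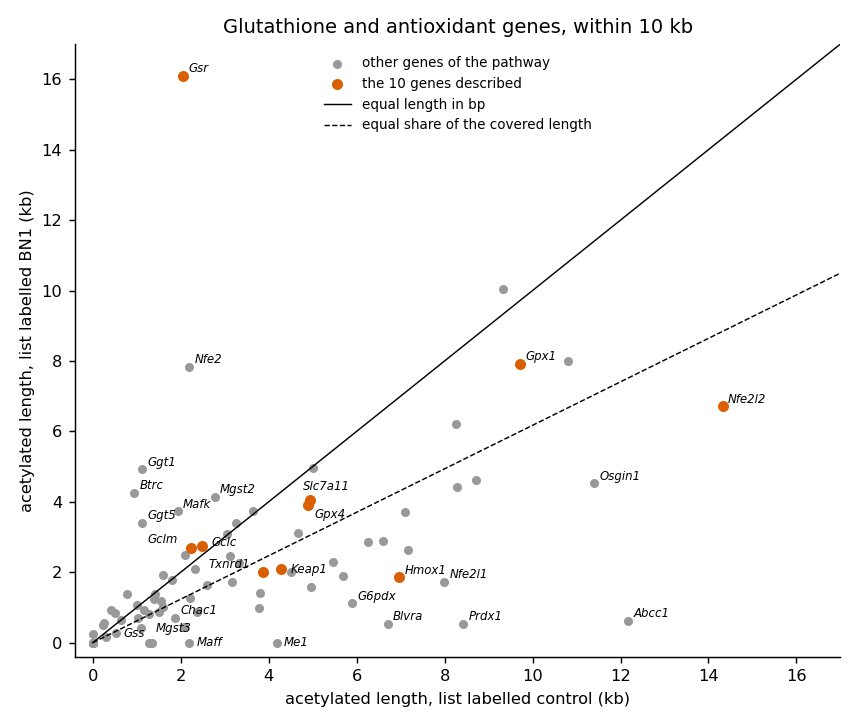
Acetylated length within 10 kb in the BN1-labelled list (y axis, kb) against the control-labelled list (x axis, kb) for the 10 genes (orange) and 76 further genes of the pathway (grey). The solid line marks equal length in bp and the dashed line an equal share of each list's covered length; Gsr, at 16104 bp in the BN1-labelled list and 2053 bp in the control-labelled list, lies farthest above both lines.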

How the data were processed

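The submitters' processing notes list mm10 as the build and MACS3 3.0.1, Bowtie2 2.5.4, deepTools 3.5.1 and Picard 3.2.0 as tools, with no role or order, and whether input was subtracted is not given in the sources used here. The deposited narrowPeak lists, 1 per ChIP library, hold the authors' fold enrichment (a linear ratio), the −log10 p and −log10 q of each peak (lowest −log10 q 1.30 in the BN1-labelled list and 1.32 in the control-labelled list) and a deposited score, 10 times the −log10 q, which was not used. The lists give no read counts, so depth, which limits the weak regions that could be listed, is unknown.

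Gene spans and promoters came from RefSeq tables of GRCm38.p6. Overlaps were computed with Python 3.11.15, numpy 2.4.6 and pandas 2.3.3 and checked on simulated intervals. Each peak was kept as 1 region. With 1 library per group no test was made. The members and gene lists were chosen with earlier results of these data known. A B cell marker of the lists is not reported here. Named pathway genes were the 6 with the largest difference in bp per direction and those with a start-site region in 1 list only; Slc3a2 was named after its values were seen, because its list holds no other gene. Alternatives covered flanks of 0 and 50 kb, −log10 q minimums of 5 and 10, lists of equal length, the top 10000 peaks, lengths per Mb, a 50% reciprocal overlap, start windows of 500 and 2500 bp and, chosen after seeing the data, leaving out peaks at other genes' starts.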

Additional observations from a re-analysis of the deposited data

How the results depend on the processing

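The differences of Gsr, Hmox1, Nfe2l2, Keap1 and Txnrd1 kept their direction under all 8 alternatives that apply to lengths, but not all kept their size. In bp, Gsr ranged from 10708 bp with a −log10 q minimum of 10 to 14602 bp with 50 kb flanks, and Hmox1 from -787 bp without flanks to -11408 bp with 50 kb flanks. Keap1 stood at -397 bp without flanks, Nfe2l2 at -2589 bp with the top 10000 peaks and Txnrd1 at -6443 bp with 50 kb flanks. Small differences turned. Gclc stood at -3226 bp and Gclm at -2772 bp with 50 kb flanks, and Gclc at -332 bp with a −log10 q minimum of 10. Slc7a11 stood at 576 bp with only the 10000 top peaks kept, and per Mb Slc7a11 (51.9), Gpx1 (101) and Gpx4 (46.4) were longer in the BN1-labelled list. The number longer in the BN1-labelled list was 1 with 50 kb flanks and, per Mb, 6, against 4 in the control-labelled list. The ratio of summed lengths, BN1 over control, was 1.10 without flanks, 1.02 with lists of equal length, 1.11 with the top 10000 and 1.46 per Mb. Gsr was included in each of these ratios. The share of control peaks that were shared was 72.7% with a −log10 q minimum of 10, 75.9% with lists of equal length and 75.0% with the top 10000. With a 50% reciprocal overlap 42.5% of BN1 and 40.5% of control peaks were shared. The matching shares of all peaks are not given, so these shifts cannot be read as particular to the 10 genes. The cause of these shifts was not tested. With the top 10000 peaks, 9 genes had a start-site region in the BN1-labelled list and 7 in the control-labelled list. With −log10 q minimums of 5 and of 10 the numbers were 9 in the BN1-labelled list and 10 in the control-labelled list. For these settings, and for the number longer with 50 kb flanks, the share of all genes is not given. The Hmox1 start-site peak of the BN1-labelled list had a −log10 q of 4.33. No paired analysis was possible because each group had 1 library.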
